A study of Homo sapiens with 32 samples.

Results

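The genes described here encode the eukaryotic translation initiation factors and the proteins named with them. They were chosen by name alone: every gene whose symbol begins with EIF1 to EIF6, the Y-linked EIF1AY left out, that had a RefSeq transcript in the deposited tables. This gave 54 genes of the 18854 genes with a matched transcript, and all 54 are protein coding. Of these, 53 passed the filter on low counts and were tested. EIF4E1B, a germline relative of EIF4E, was at or near 0 in all 32 libraries and was not tested.

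As background, initiation factors bring the small ribosomal subunit to an mRNA and find its start codon. EIF2 carries the initiator tRNA with GTP, EIF2B reloads EIF2 with GTP, and 4 kinases (EIF2AK1 to EIF2AK4) block that step under stress by phosphorylating the EIF2 alpha subunit. EIF4E binds the cap, EIF4G1 is the scaffold that joins it to the helicase EIF4A1 and to EIF3 on the ribosome, and the EIF4EBP proteins, targets of the growth kinase mTOR, hold EIF4E back. EIF1, EIF1AX and EIF5 act in start codon recognition, EIF5B joins the large subunit, and EIF6 keeps the subunits apart until then. EIF5A and EIF5A2, despite their name, act mostly when ribosomes elongate and terminate.

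The libraries come from RNA of 4 established lines of human cancer cells: A375 (melanoma), Cal51 and MDA-MB-231 (breast) and DLD1 (colorectal). Each line came as cells labelled wild-type (WT) and as cells with the G579S mutation, which the design text calls sensitive and resistant to inhibition of CDK11, a cyclin-dependent kinase of transcription and splicing. Cells of every group were grown in DMEM with fetal bovine serum and received the inhibitor OTS964 at 100 nM, or only its solvent DMSO (0 nM), for 6 h. There were 2 libraries in each of the 16 groups, so 8 for each genotype and treatment. The labels do not say whether the G579S cells are single clones, and do not tie the 2 libraries of a group to separate cultures. The p-values therefore cover only how far these samples vary, and that variation may be technical. In bulk RNA, fewer cells and less RNA per cell cannot be told apart.

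Libraries held 16091376 to 29742687 estimated reads, of which 85.6% to 89.4% fell on transcripts matched to a gene. The 4 libraries labelled DLD1 WT went against their label. SOX10, which defines the melanocyte lineage, was at 695 and 737 CPM (counts scaled to library size by edgeR with TMM, which takes most genes as unchanged between libraries) in their DMSO libraries, at 583 and 600 CPM in A375 WT and at 0.938 and 1.63 CPM in DLD1 G579S, while the intestinal factor CDX2 was at 2.84 and 3.66 CPM, against 96.1 and 96.5 CPM in DLD1 G579S and 0 CPM in both A375 WT DMSO libraries. The 9 colorectal epithelial markers summed to 258 and 317 CPM, against 7169 to 7424 CPM in DLD1 G579S and 42.2 to 44 CPM in A375 WT, and the 8 melanocyte markers to 1006 and 1068 CPM against 95.2 and 97.7 CPM in DLD1 G579S. Of the 53 initiation factor genes, 49 had a DMSO level in the libraries labelled DLD1 WT nearer to A375 WT than to DLD1 G579S, with a median absolute log2 difference of 0.07 from the former and 0.62 from the latter. Without these 4 libraries, 36 of the 39 members that passed in WT cells passed in the same direction, and none of the 39 changed sign or moved by more than 0.26 on the log2 scale. EIF3E (0.31, adjusted p = 0.084), EIF4G3 (0.24, adjusted p = 0.085) and EIF4E2 (-0.15, adjusted p = 0.16) no longer passed. CDK11B was at 605 and 672 CPM in the MDA-MB-231 G579S DMSO libraries and between 25.5 and 61.8 CPM in the other DMSO libraries, and replicate 2 of Cal51 G579S DMSO and replicate 1 of MDA-MB-231 WT OTS964 stood apart from their partners.

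Members differed widely in level, although most work in one cycle. Levels are compared between genes per length, in the deposited TPM, which corrects reads for transcript length and depth. EIF5A stood highest, at a mean of 2065 TPM over the 32 libraries (range 1225 to 2881), followed by the cap-complex helicase EIF4A1 at 1538 TPM (1103 to 2307). EIF1 had 619, EIF6 545 and EIF3I, a subunit of EIF3, 544 TPM. The ranges of these last 3 overlapped widely, and EIF5A and EIF4A1 overlapped each other and EIF6 but not EIF1 or EIF3I. In all, 24 of the 54 genes averaged at least 100 TPM, 46 at least 10 and 50 at least 1. The lowest of these 50 was EIF4E itself, at 1.34 TPM (0.116 to 3.96) on its 3 matched transcripts. Transcripts without a gene name were not used, so this value may leave out reads of EIF4E. EIF4E3 (0.917 TPM), EIF3CL (0.733), EIF4EBP3 (0.58) and EIF4E1B stood below 1 TPM.

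**Figure D1:**
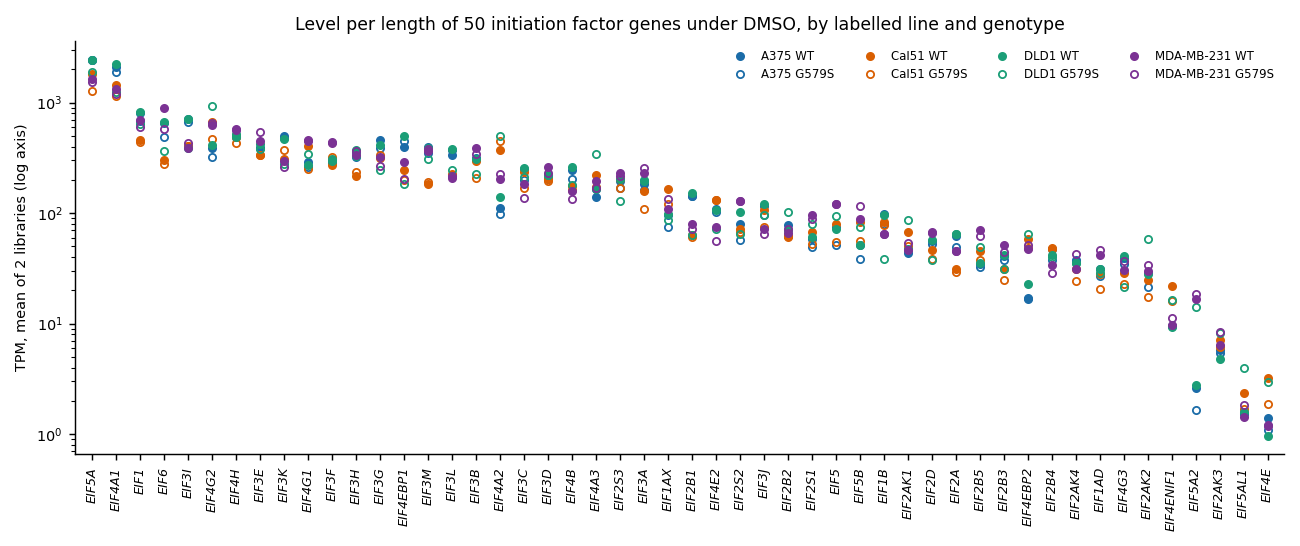
Mean TPM of 2 libraries (log axis) for the 50 members that average at least 1 TPM, in the 8 DMSO groups, with filled points for WT, open points for G579S and one colour per labelled line; groups at 0 TPM are not drawn. EIF5A and EIF4A1 lie above all others, and EIF5A2, at 14.2 to 18.5 TPM in 3 groups, was at 0 TPM in Cal51.

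Lines differed in these levels without drug. Among the 4 G579S DMSO groups, 48 of 53 members differed (edgeR F test over the 3 line differences), against 78.8% of all genes tested. EIF5A2, a second EIF5A gene often raised in tumours, was at 18.5 ± 0.757 TPM (SD, n = 2) in MDA-MB-231 G579S and at 14.2 ± 0.853 in DLD1 G579S. It was at 1.65 ± 0.0322 TPM in A375 G579S and was listed at 0 in all Cal51 libraries. EIF4A2, the second EIF4A helicase, ran from 98.4 ± 0.49 TPM in A375 through 226 ± 4.46 in MDA-MB-231 to 450 ± 29.9 in Cal51 and 503 ± 11.1 in DLD1 (G579S DMSO, SD, n = 2). The steps from A375 to MDA-MB-231 and from there to Cal51 exceeded the spread of the libraries. EIF4A1 ran the other way in that A375 had the most, 1886 ± 0.703 TPM, while Cal51, MDA-MB-231 and DLD1 lay between 1148 and 1241 TPM. EIF5A ran from 1284 ± 83.5 TPM in Cal51 to 2431 ± 17.3 in A375.

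In WT cells, OTS964 split the family. The comparison asks how inhibition of CDK11 affects sensitive cells, with the line as a block over 16 libraries. EIF5, EIF1B, the stress kinase EIF2AK3 and EIF4ENIF1 fell in all 4 labelled lines, and most EIF3 subunits, EIF4G1, EIF4EBP1, EIF6 and EIF5A rose relative to the bulk of genes in all 4. Of 53 members, 29 rose and 10 fell at an adjusted p of 0.05, so 39 passed (73.6%). Of all 14318 genes tested 58.8% passed, 27.1% higher and 31.8% lower. The median log2 fold change was 0.38 for the members and -0.11 for all genes. With a fold of at least 2 as well, 10 of 53 members passed, 4 higher and 6 lower. Of all 14318 genes 4652 did (32.5%), 1411 higher and 3241 lower, a larger share than that of the members.

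The direction of the smaller rises depends on how libraries are put on one scale. TMM scaling, used here for CPM and for fold changes, gave factors of 0.701 to 0.832 in WT OTS964 libraries and of 1.091 to 1.157 in WT DMSO libraries. With library totals alone the median of all genes moved from -0.11 to -0.65, and 12 members rose and 22 fell, against 13.4% and 47.7% of all genes. The summed TPM of the 54 members had a median of 13310 in the 8 WT DMSO libraries and 12406 in the 8 WT OTS964 libraries, with overlapping ranges (11193 to 14716 and 9533 to 13615). A rise under TMM therefore means a rise relative to most genes. In all, 12 members rose and 9 fell under TMM, RLE (a second scaling built on the same idea) and library totals alike. These 21 also kept their direction and passed in each of the 24 alternatives run for them (scaling, filter, test, transcripts, replicate block, left-out libraries). They were EIF2D, EIF3C, EIF3F, EIF3H, EIF3I, EIF3K, EIF3L, EIF4A1, EIF4EBP1, EIF4G1, EIF5A and EIF6, higher, and EIF1B, EIF2AK3, EIF3A, EIF3J, EIF4E, EIF4EBP2, EIF4ENIF1, EIF5 and EIF5A2, lower. TPM as deposited was not among the 24. Of the 12 higher members only EIF4A1 had a lower mean TPM with OTS964, 1597 against 1775 with DMSO in WT libraries. With library totals alone EIF4A1 passed within lines only in MDA-MB-231 WT (0.21), and had -0.06 in Cal51 WT. EIF6 TPM rose only in MDA-MB-231 WT (887 and 919 to 1270 and 992), and in Cal51 WT went from 303 and 303 to 278 and 277. Mean TPM was also lower with OTS964 for EIF3F, EIF3L and EIF4EBP1 in Cal51 WT, and for EIF2D in the libraries labelled DLD1 WT.

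**Figure D2:**
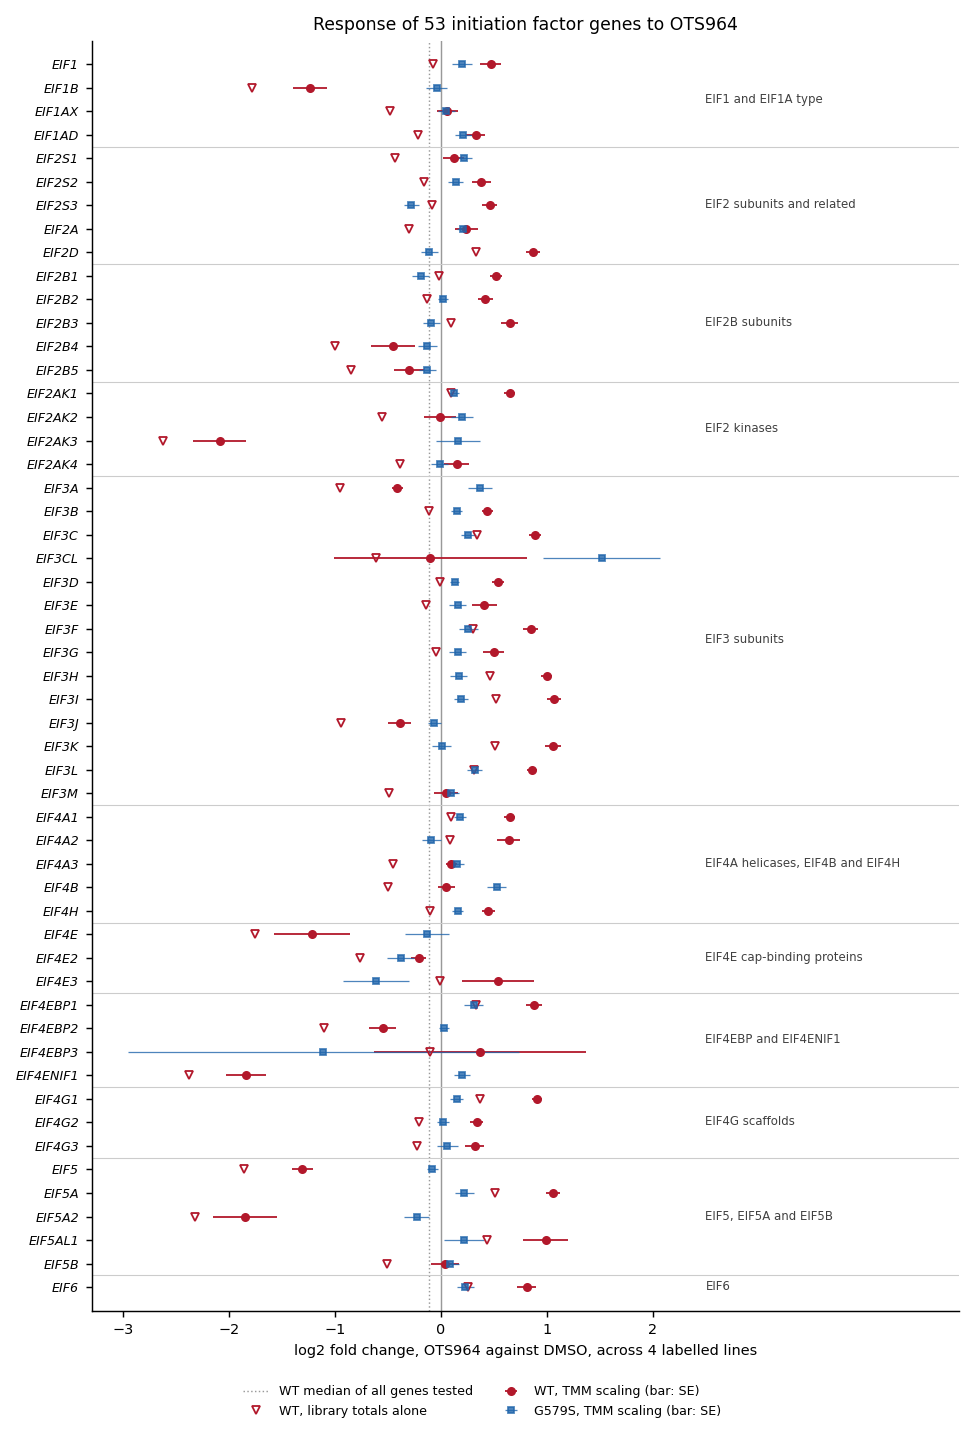
Log2 fold change of OTS964 against DMSO across lines for the 53 members tested, by role, with red circles for WT and blue squares for G579S (TMM scaling, bars SE) and open triangles for WT with library totals alone; the dotted line is the WT median of all genes under TMM. EIF2AK3, EIF5A2, EIF4ENIF1, EIF5, EIF1B and EIF4E lie furthest to the left in WT, and the G579S points lie near 0 for most members.

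Among the factors of start codon recognition, EIF1 and EIF1B, which encode near-identical proteins, moved apart. EIF1B had 48.1 and 48.5 CPM with DMSO and 23 and 22.6 CPM with OTS964 in A375 WT, 34.5 and 37.2 against 18.3 and 13.7 in Cal51 WT, and 26.7 and 27.6 against 8.79 and 12.2 in MDA-MB-231 WT. In the libraries labelled DLD1 WT it had 44.2 and 51 against 11 and 26.8 CPM. Within each line both OTS964 libraries were below both DMSO libraries, and over all lines only the second DLD1-labelled OTS964 library (26.8 CPM) reached the lowest DMSO value. The log2 fold change was -1.24 ± 0.16 (SE, adjusted p = 7.8e-06). EIF1 went from a median of 485 CPM (271 to 592) to 558 CPM (429 to 964), a log2 fold change of 0.47 (adjusted p = 0.0011) that became -0.07 with library totals alone.

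The ratio of these 2 genes does not depend on the scaling. EIF1B had a median of 12.1% of the TPM of EIF1 in WT DMSO libraries (8.97% to 18.8%) and 3.92% in WT OTS964 libraries (2.5% to 5.38%). All 8 OTS964 libraries lay below all 8 DMSO libraries. Without the libraries labelled DLD1 WT the medians were 12.2% and 3.94%. In G579S cells the medians were 11.6% (5.99% to 18.5%) and 9.72% (4.64% to 15.3%), and the ranges overlapped. EIF1AX, which aids scanning, and EIF1AD, a factor of small-subunit assembly with an EIF1A domain, had log2 fold changes of 0.06 (adjusted p = 0.63) and 0.33 (adjusted p = 0.0055), and with library totals alone of -0.48 (adjusted p = 0.0017) and -0.22.

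The promoters of this pair and of EIF5A2, the genes whose paralogs moved otherwise, are shown as RefSeq gives them on GRCh38.p14, 120 bases each on the strand of the gene, ending 0 bases (EIF1), 23 bases (EIF1B) and 56 bases (EIF5A2) before the annotated start site, so that no annotated UTR is included. EIF1 is at chr17:41688765-41688884 (+ strand), EIF1B at chr3:40309564-40309683 (+ strand) and EIF5A2 at chr3:170908694-170908813 (- strand). Capitals mark matches on either strand to the E-box CACGTG and to the GC box GGGCGG.
EIF1: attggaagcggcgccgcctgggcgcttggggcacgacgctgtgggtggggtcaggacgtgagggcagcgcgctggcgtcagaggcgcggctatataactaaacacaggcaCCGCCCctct
EIF1B: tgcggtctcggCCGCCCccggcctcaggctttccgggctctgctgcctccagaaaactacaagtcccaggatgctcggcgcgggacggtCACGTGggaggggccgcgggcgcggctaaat
EIF5A2: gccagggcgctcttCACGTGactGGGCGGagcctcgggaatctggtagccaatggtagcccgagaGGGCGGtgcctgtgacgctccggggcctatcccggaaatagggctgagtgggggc

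In windows of 250 bases before to 50 after the start, the E-box stood in 12 of the 45 members in the RefSeq table (26.7%) and in 8.77% of all 27305 genes there. The GC box stood in 33 (73.3%) against 48.3%, the element TGACGTCA in 0 against 2.25% and TATAAA in 2 (4.44%) against 14%. The 27305 genes include genes not tested here, and a gene with several start sites counted if any of its windows matched. The 12 members with an E-box include both fallers (EIF1B, EIF5A2, EIF4E) and risers under TMM (EIF3F, EIF3K, EIF4G1 and EIF4H, the last at -0.10 with library totals alone). These are matches of letters in both strands, and binding was not measured.

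Of the 3 EIF2 subunits, the beta and gamma genes passed as higher and the alpha gene did not. EIF2S3, the gamma subunit that binds GTP and the initiator tRNA, had 366 to 434 CPM with DMSO (median 413) and 473 to 691 CPM with OTS964 (median 564) in WT cells, without overlap, a log2 fold change of 0.46 ± 0.07 (adjusted p = 2.6e-05) that was -0.08 with library totals alone. EIF2S2 (beta) had 91 to 178 CPM (median 139) against 108 to 244 CPM (median 189), with overlap, and 0.38 on the log2 scale (adjusted p = 0.0019; -0.16 with library totals). EIF2S1, the alpha subunit that the kinases phosphorylate, had 142 to 220 CPM against 124 to 253 CPM, and its log2 fold change of 0.12 did not pass (adjusted p = 0.33), but passed as lower with library totals alone (-0.43, adjusted p = 0.0071). EIF2A, an alternative carrier of initiator tRNA, did not pass either (0.24, adjusted p = 0.067). EIF2D, which delivers initiator tRNA without GTP, rose from a median of 66.8 CPM (44.8 to 71.7) to 116 CPM (97.8 to 134), with no overlap, a log2 fold change of 0.87 ± 0.07 (adjusted p = 1e-07) and of 0.33 with library totals alone.

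Of the 5 EIF2B subunits, EIF2B1, EIF2B2 and EIF2B3 passed as higher (0.52, 0.42 and 0.65), and all 3 were so in each labelled line. With library totals alone these values were -0.02, -0.13 and 0.10. EIF2B4, a regulatory subunit, and EIF2B5, the catalytic one, had negative values that did not pass across lines (-0.45, adjusted p = 0.086; -0.30, adjusted p = 0.084). Both passed as lower with library totals alone (adjusted p = 0.0016 and 0.00034). Within lines both fell in Cal51 WT, by 1.26 and 0.98 on the log2 scale. EIF2B4 also fell in A375 WT (-0.62, adjusted p = 0.039) and EIF2B5 in the libraries labelled DLD1 WT (-0.34, adjusted p = 0.026).

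The 4 EIF2 kinases did not move together. EIF2AK3 (PERK, the kinase of the endoplasmic reticulum) had 15.9 and 17.1 CPM with DMSO against 4.29 and 3.48 with OTS964 in A375 WT, 14.9 and 20.5 against 7.35 and 5.57 in Cal51 WT, 15.6 and 11.2 against 1.82 and 4.7 in the libraries labelled DLD1 WT, and 15.2 and 17.3 against 1.57 and 3.08 in MDA-MB-231 WT. Every OTS964 library was below every DMSO library. The log2 fold change of -2.09 ± 0.25 (adjusted p = 4.4e-06) was the largest of any member tested. EIF2AK1 (HRI, which senses heme and mitochondrial stress) was at 110 to 164 CPM with DMSO and at 170 to 268 CPM with OTS964, again without overlap, with a log2 fold change of 0.65 ± 0.05 (adjusted p = 1.3e-07) that was 0.10 and did not pass with library totals alone (adjusted p = 0.12). EIF2AK2 (PKR, the sensor of double-stranded RNA) had 53.9 to 72.8 against 37.2 to 108 CPM (-0.01, adjusted p = 0.95), and EIF2AK4 (GCN2, which senses uncharged tRNA) 89.4 to 132 against 53.4 to 154 CPM (0.15, adjusted p = 0.32). Both passed as lower when scaled by library totals alone (-0.56, adjusted p = 0.0085; -0.39, adjusted p = 0.016).

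The subunits of EIF3, the largest initiation factor, drew apart in level. Of 14 EIF3 genes, 10 rose and 2 fell in WT cells (27.1% and 31.8% of all genes), with a median log2 fold change of 0.52. With library totals alone 6 rose and 4 fell (13.4% and 47.7% of all genes), with a median of -0.03. EIF3I (1.07 ± 0.07, adjusted p = 1.3e-08), EIF3K (1.06 ± 0.08) and EIF3H (1.00 ± 0.05, adjusted p = 2.9e-09) rose most, and with library totals alone their values were 0.52, 0.51 and 0.46. EIF3H had 120 to 263 CPM with DMSO (median 202) and 261 to 533 CPM with OTS964 (median 388) in WT cells, and EIF3K 102 to 207 (median 146) against 189 to 382 CPM (median 316). Both pairs of ranges overlapped slightly. EIF3I had 578 and 545 CPM with DMSO and 995 and 1027 with OTS964 in A375 WT, 271 and 283 against 667 and 693 in Cal51 WT, and 265 and 258 against 657 and 514 in MDA-MB-231 WT. In the libraries labelled DLD1 WT it had 546 and 569 against 1141 and 1040 CPM. Treated libraries of one line overlapped untreated libraries of another, but within each line both treated libraries lay above both untreated ones.

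EIF3A, the largest subunit and a core of the complex, went the other way. It had 594 and 609 CPM with DMSO against 501 and 492 with OTS964 in A375 WT, 454 and 459 against 300 and 291 in Cal51 WT, 631 and 646 against 507 and 541 in the libraries labelled DLD1 WT, and 664 and 680 against 492 and 502 in MDA-MB-231 WT. The log2 fold change was -0.41 ± 0.05 (adjusted p = 1e-05). EIF3J, a loosely bound subunit, had -0.39 ± 0.11 (adjusted p = 0.0057). EIF3C (0.89), EIF3L (0.86) and EIF3F (0.85) rose under each scaling. EIF3D (0.54), EIF3G (0.50), EIF3B (0.44) and EIF3E (0.41) passed as higher under TMM and had -0.01, -0.05, -0.11 and -0.14 with library totals alone. EIF3M had 0.05 (adjusted p = 0.71), and -0.49 with library totals alone (adjusted p = 0.0063). EIF3CL is a near-identical copy of EIF3C, at 0 to 7.31 CPM in WT libraries, so how reads split between the pair is uncertain.

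In each library, the TPM of the highest of 13 EIF3 subunits (EIF3CL left out) was set against that of the lowest, a ratio that needs no scaling. It was 3.75 to 6.43 in the 8 WT DMSO libraries (median 6.1) and 11.3 to 23.4 in the 8 WT OTS964 libraries (median 13.4). The ranges did not overlap, and without the libraries labelled DLD1 WT they were the same, with medians of 6.12 and 14.7. In G579S cells they overlapped, at 3.95 to 8.73 with DMSO and 5.41 to 11.2 with OTS964. The same ratio was not taken over other complexes or sets of genes, so a wider spread may not be particular to EIF3. EIF3J was the lowest subunit in all 32 libraries.

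Among the cap-binding genes, EIF4E and EIF4E2 passed as lower. EIF4E had 2 to 7.45 CPM with DMSO (median 3.01) and 0.574 to 2.64 CPM with OTS964 (median 1.5) in WT cells, with overlap, and a log2 fold change of -1.22 ± 0.36 (adjusted p = 0.0083). It rests on few reads and on matched transcripts alone. EIF4E2, a cap-binding repressor, had -0.21 (adjusted p = 0.025), which turned to 0.06 when counts were rebuilt from TPM and length. It had -0.11 with RLE, which did not pass (adjusted p = 0.2), and -0.76 with library totals alone (adjusted p = 3.9e-07). EIF4E3 did not pass (0.54, adjusted p = 0.19).

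The proteins that hold EIF4E split as well. EIF4ENIF1 (which carries EIF4E into the nucleus and into P-bodies) had 23.4 and 19.5 CPM with DMSO against 9.14 and 10.4 with OTS964 in A375 WT, 42.4 and 42.6 against 10.1 and 7.21 in Cal51 WT, 19.7 and 21.3 against 4.78 and 7.05 in the libraries labelled DLD1 WT, and 19.5 and 18.8 against 3.25 and 5.4 in MDA-MB-231 WT. All treated libraries lay below all untreated ones, with a log2 fold change of -1.84 ± 0.19 (adjusted p = 8.1e-07). EIF4EBP1 rose from a median of 125 CPM (82 to 213) to 236 CPM (158 to 356), by 0.88 ± 0.08 (adjusted p = 2.8e-07), and by 0.33 with library totals alone. EIF4EBP2, the neighbour in function, fell from a median of 151 CPM (78.5 to 242) to 89.9 CPM (44.4 to 245), by 0.55 on the log2 scale (adjusted p = 0.0023). The TPM ratio of EIF4EBP2 to EIF4EBP1 had a median of 10.5% in WT DMSO libraries (4.03% to 24.4%) and of 3.02% in WT OTS964 libraries (1.19% to 12.5%), with overlap. Without the libraries labelled DLD1 WT these medians were 16.1% and 6.35%. EIF4EBP3 was at or near 0 in most libraries and did not pass (adjusted p = 0.78).

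The scaffold EIF4G1 rose with no overlap between groups. It had 979 and 1002 CPM with DMSO against 1674 and 1657 with OTS964 in A375 WT, 1157 and 1202 against 2402 and 2465 in Cal51 WT, 898 and 946 against 1596 and 1790 in the libraries labelled DLD1 WT, and 1369 and 1399 against 3004 and 2468 in MDA-MB-231 WT. The log2 fold change was 0.91 ± 0.05 (adjusted p = 6.6e-09) and 0.37 with library totals alone. EIF4G2 (DAP5, a scaffold that lacks the EIF4E site) had 910 to 1412 CPM (median 1155) against 1123 to 1994 CPM (median 1265), and EIF4G3 92.5 to 170 (median 127) against 91.8 to 241 CPM (median 179), both with overlap. EIF4G2 had a log2 fold change of 0.34 (adjusted p = 0.00037) and EIF4G3 0.32 (adjusted p = 0.0087), and with library totals alone both were negative (-0.21 and -0.23). The TPM of EIF4G2 was 131% to 168% of that of EIF4G1 in WT DMSO libraries and 61.1% to 116% in WT OTS964 libraries, without overlap, while in G579S libraries the ranges were 123% to 272% and 96.8% to 272%. Other pair ratios overlapped in WT cells. They were 6.47% to 16.7% against 3.04% to 12.2% for EIF4G3 to EIF4G1, and 5.15% to 25.7% against 6.54% to 27% for EIF4A2 to EIF4A1. EIF5A2 to EIF5A had 0% to 1.03% against 0% to 0.306%. Such ratios were not taken over pairs of other genes.

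Of the helicases, EIF4A1 had a median of 1765 CPM with DMSO (1213 to 2430) and 2720 CPM with OTS964 (1808 to 3783) in WT cells, a log2 fold change of 0.65 ± 0.05 (adjusted p = 2.7e-08) and of 0.10 with library totals alone (adjusted p = 0.048). EIF4A2 passed at 0.64 ± 0.11 (adjusted p = 0.00021), with 0.09 under library totals. EIF4A3, a helicase of the exon junction complex, did not pass (0.10, adjusted p = 0.1; -0.45 with library totals, adjusted p = 3.7e-06). Of the helicase cofactors, EIF4H passed as higher (0.45, adjusted p = 1e-05; -0.10 with library totals) and EIF4B did not (0.05, adjusted p = 0.62; -0.50 with library totals, adjusted p = 0.00054).

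EIF5, which triggers GTP hydrolysis by EIF2 at the start codon, fell in every WT line. It had 278 and 276 CPM with DMSO against 130 and 134 with OTS964 in A375 WT, 254 and 260 against 119 and 108 in Cal51 WT, 250 and 278 against 86 and 127 in the libraries labelled DLD1 WT, and 395 and 393 against 104 and 140 in MDA-MB-231 WT. The highest treated library (140 CPM) was far below the lowest untreated one (250 CPM). The log2 fold change was -1.31 ± 0.10 (adjusted p = 7.2e-08).

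EIF5A, the most abundant member, rose with no overlap between groups. It had 1736 and 1756 CPM with DMSO against 3131 and 3014 with OTS964 in A375 WT, 1105 and 1171 against 2945 and 3008 in Cal51 WT, 1708 and 1782 against 3717 and 3324 in the libraries labelled DLD1 WT, and 1017 and 1001 against 2147 and 1910 in MDA-MB-231 WT. The log2 fold change was 1.06 ± 0.07 (adjusted p = 1.3e-08) and 0.51 with library totals alone. EIF5A2 fell where it was present, from 8.19 and 9.79 to 2.25 and 2.49 CPM in A375 WT, from 7.31 and 11.8 to 1.05 and 2.52 CPM in the libraries labelled DLD1 WT and from 50.9 and 50.8 to 12.3 and 28.8 CPM in MDA-MB-231 WT (log2 fold change -1.85 ± 0.30, adjusted p = 0.00024). EIF5AL1, a gene whose sequence is close to EIF5A, had 0.99 (adjusted p = 0.00086), and its reads may belong to EIF5A. EIF5B did not pass (0.04, adjusted p = 0.82; -0.51 with library totals, adjusted p = 0.0046). EIF6 rose from 341 ± 121 CPM (SD, n = 8, range 150 to 457) to 608 ± 287 CPM (SD, n = 8, range 275 to 1170), with overlap, by 0.81 ± 0.09 (adjusted p = 1.3e-06), and by 0.26 with library totals alone.

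**Figure D3:**
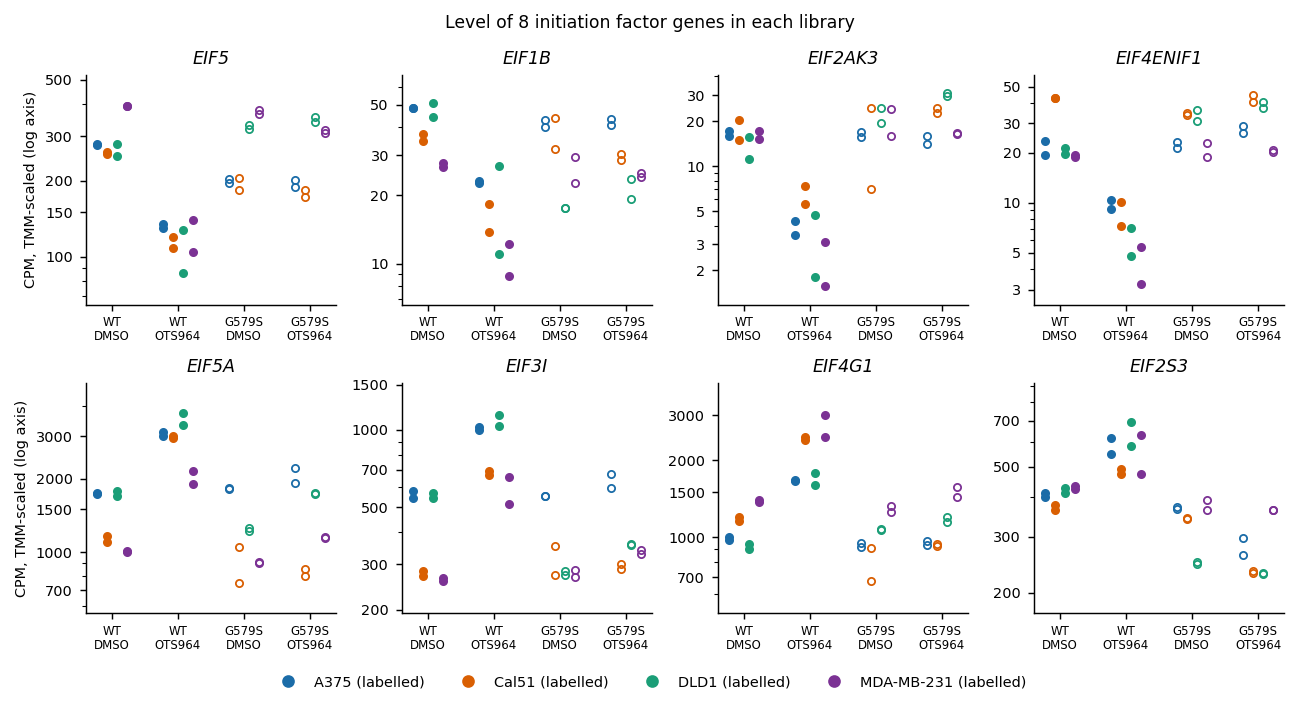
TMM-scaled CPM (log axis) of 8 members in each of the 32 libraries, by genotype and treatment, with filled points for WT, open points for G579S and one colour per labelled line. EIF5, EIF2AK3 and EIF4ENIF1 in WT OTS964 libraries lie below all WT DMSO libraries, EIF5A, EIF4G1 and EIF2S3 lie above all of them, and the G579S groups overlap for each of the 8.

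Counted over members, every WT OTS964 library lay above every WT DMSO library for 10 genes (5.09% of all genes tested did so) and below for 3 (10.1% of all genes). The 10 were EIF2S3, EIF2D, EIF2AK1, EIF3B, EIF3C, EIF3D, EIF3F, EIF4G1, EIF4H and EIF5A, and the 3 were EIF2AK3, EIF4ENIF1 and EIF5. Within lines, from 1 fit of the 16 groups, 38 members passed in A375 WT, 30 higher and 8 lower (45.8% of all genes, 20.8% higher and 25% lower). In Cal51 WT 35 passed, 24 higher and 11 lower (52.8% of all genes, 24.9% and 27.8%). In the libraries labelled DLD1 WT 40 passed, 32 higher and 8 lower (50% of all genes, 22.2% and 27.7%). In MDA-MB-231 WT 32 passed, 24 higher and 8 lower (46.5% of all genes, 24.1% and 22.4%). With library totals alone 10 rose and 14 fell in A375 WT (9.37% and 35.4% of all genes), and 7 and 30 in Cal51 WT (11.5% and 42.1%). In the libraries labelled DLD1 WT these counts were then 8 and 15 (10.4% and 40.4%), and in MDA-MB-231 WT 16 and 19 (11.6% and 34%). Under TMM, 20 members were higher and 4 lower in each of the 4 labelled lines, against 13.6% and 13.3% of all genes. The latter 4 were EIF1B, EIF2AK3, EIF4ENIF1 and EIF5. The libraries labelled DLD1 WT lay near A375 WT, so 4 labels may not mean 4 distinct lines. Without the 4 libraries labelled DLD1 WT, 36 members passed across lines, 27 higher and 9 lower, and without replicate 1 of MDA-MB-231 WT OTS964 44 passed. Over the 6 remaining libraries of each treatment, 11 members then lay above all DMSO libraries (6.02% of all genes) and 4 below (11.4%), EIF3H and EIF1B being added.

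The size of the response differed among WT lines for some members. Under TMM their share (13.2%) was below that of all genes (16.9%), and with library totals alone above it (22.6% and 17.6%). Adding line by treatment terms, 7 members differed among labelled lines (16.9% of all genes), namely EIF4A2 (adjusted p = 0.0041), EIF4EBP2 (0.01), EIF3M (0.012), EIF2B5 (0.015), EIF5A (0.02), EIF4H (0.042) and EIF3A (0.046). EIF4A2 had log2 fold changes of 0.88 ± 0.09 in A375, 0.71 ± 0.09 in Cal51, 0.96 ± 0.09 in the libraries labelled DLD1 and 0.01 ± 0.09 in MDA-MB-231, where its CPM were 187 and 189 with DMSO and 170 and 208 with OTS964. With library totals alone its values were 0.44, 0.00, 0.41 and -0.50 in the same order. The value in MDA-MB-231 then passed as lower (adjusted p = 0.00021). EIF3M had -0.56 in Cal51 and 0.34 in MDA-MB-231, both past the threshold. It had, with library totals alone, -1.26 in Cal51 and -0.16 in MDA-MB-231, the latter not past the threshold (adjusted p = 0.31). EIF4EBP2 had -0.80 in A375, -1.09 in the libraries labelled DLD1 and -0.01 in Cal51. EIF2B5 had -0.98 in Cal51 and 0.28 in MDA-MB-231, the latter not past the threshold (adjusted p = 0.061). With library totals alone EIF2B5 had -1.68 and -0.23 there. EIF5A rose most in Cal51, by 1.39, and EIF4H most in MDA-MB-231, by 0.71.

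**Figure D4:**
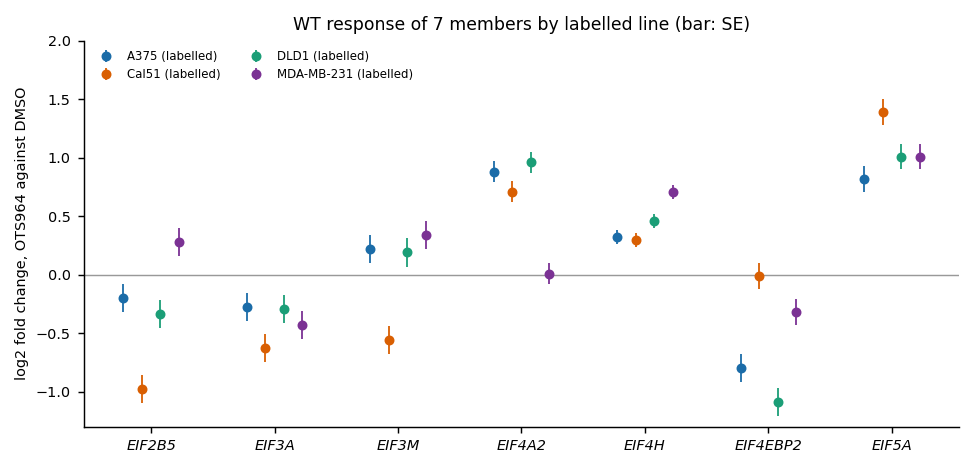
Log2 fold change (TMM scaling) of OTS964 against DMSO in WT cells by labelled line for the 7 members whose response differed among lines, with bars for SE from the fit of 16 groups. Cal51 lies lowest for EIF2B5, EIF3A and EIF3M, MDA-MB-231 lies near 0 for EIF4A2, and the libraries labelled DLD1 lie near A375.

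This count was unstable. It was 3 or 4 without any 1 of the DMSO libraries of A375, Cal51 and MDA-MB-231, 4 without replicate 2 of A375 OTS964, 3 without replicate 1 of Cal51 OTS964, 11 without replicate 2 of the libraries labelled DLD1 OTS964, and 15 and 30 without replicates 1 and 2 of MDA-MB-231 OTS964.

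In G579S cells few members passed. EIF4B had 520 and 517 CPM with DMSO and 746 and 769 with OTS964 in A375 G579S, 423 and 338 against 484 and 476 in Cal51 G579S, 412 and 410 against 817 and 792 in DLD1 G579S, and 273 and 271 against 317 and 334 in MDA-MB-231 G579S. Its log2 fold change across lines was 0.53 ± 0.09 (adjusted p = 0.0098). Within each line both treated libraries were above both untreated ones, and the lines overlapped. EIF3L passed as higher (0.32, adjusted p = 0.03; 0.20 with library totals alone, adjusted p = 0.07), from 210 to 481 CPM (median 268) to 261 to 573 CPM (median 356). EIF2S3 passed as lower (-0.28 ± 0.07, adjusted p = 0.044), from 247 to 392 CPM (median 355) to 229 to 365 CPM (median 248). These 3 of 53 members compare with 2.43% of all genes tested, 1.26% higher and 1.17% lower, and the median log2 fold change was 0.14 against -0.01. The call is fragile. The count was 0 without the 4 DLD1 G579S libraries, 1 without any 1 of them, without replicate 1 of A375 G579S DMSO or without replicate 2 of A375 G579S OTS964, and 21 without replicate 2 of Cal51 G579S DMSO.

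Of the single G579S lines, DLD1 had the most calls. Within DLD1 G579S 21 members passed, 18 higher and 3 lower (23.5% of all genes, 10.8% higher and 12.7% lower), with a median log2 fold change of 0.24. EIF4B (0.97 ± 0.10, adjusted p = 1.1e-06), EIF3A (0.81 ± 0.12) and EIF3L (0.62 ± 0.10) were the highest by p among the rises, and EIF4E2 (-1.10 ± 0.12, adjusted p = 2.1e-06) among the falls. EIF3A had 620 and 600 CPM with DMSO and 1063 and 1073 CPM with OTS964, while its values in WT cells were negative in all 4 labelled lines (-0.28 to -0.63). With library totals alone the 21 became 11, 5 higher and 6 lower (3.68% and 19.8% of all genes). Fewer also passed when replicate 1 of the DMSO or of the OTS964 libraries was left out. In A375 G579S 1 member passed (EIF4B, 0.55, adjusted p = 0.012), against 0.657% of all genes, 0.384% higher and 0.272% lower, and none did without any 1 of its 4 libraries. In Cal51 G579S 2 passed, both lower (0.391% of all genes, 0.14% higher and 0.251% lower), EIF4A2 (-0.53, adjusted p = 0.015) and EIF2S3 (-0.56, adjusted p = 0.022), 13 without replicate 1 of its DMSO libraries and 0 without any 1 of the other 3. In MDA-MB-231 G579S, whose CDK11B was high, 0 passed with edgeR (0.307% of all genes, 0.223% higher and 0.0838% lower), 11 at an unadjusted p under 0.05, and 1 with DESeq2.

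The WT and G579S responses were compared directly. They differed in 35 of 53 members, 25 more positive and 10 more negative in WT, against 50.1% of all genes tested, 24.3% and 25.8%. Leaving out all 8 DLD1-labelled libraries gave 32. With library totals alone 10 were more positive and 21 more negative, against 12.6% and 36.3% of all genes. The median difference of the members went from 0.27 under TMM to -0.16. Under TMM, EIF5 differed by -1.23 ± 0.12 (adjusted p = 3.2e-09) and EIF4ENIF1 by -2.04 ± 0.19 (adjusted p = 3.6e-09). In G579S cells EIF5 went from 184 to 381 CPM (median 262) to 172 to 356 CPM (median 255), a log2 fold change of -0.08 (adjusted p = 0.42). EIF2AK3 differed by -2.25 ± 0.33 and EIF1B by -1.20 ± 0.19. EIF4G1 differed by 0.76 ± 0.08 (adjusted p = 1.9e-08), EIF5A by 0.83 ± 0.11 and EIF3K by 1.06 ± 0.12.

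EIF2S3 passed as higher in WT and as lower in G579S cells, and the responses differed by 0.74 ± 0.09 (adjusted p = 3.6e-07). Its WT value was -0.08 with library totals alone (adjusted p = 0.35) and the difference then 0.31 (adjusted p = 0.0083). EIF4B did not pass in WT cells and rose in G579S cells, with a difference of -0.48 ± 0.12 (adjusted p = 0.0019). EIF3A differed by -0.77 ± 0.12 (adjusted p = 6.5e-06), with an adjusted p of 0.071 in G579S cells alone.

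Without drug, fewer members differed between genotypes in A375, Cal51 and MDA-MB-231 than in the libraries labelled DLD1. In A375 2 members passed (9.77% of all genes, 4.39% higher and 5.38% lower), EIF4A3 (0.31, higher in G579S) and EIF5 (-0.48), and none did without any 1 of the 4 libraries. In Cal51 12 passed, 4 higher and 8 lower in G579S (17% of all genes, 10.3% and 6.74%), and EIF4G1 (-0.57 ± 0.10, adjusted p = 0.0007) and EIF4A2 (0.45 ± 0.09, adjusted p = 0.0014) had the smallest p, followed by EIF3B (-0.36), EIF3A (-0.45), EIF4G2 (-0.40), EIF2AK1 (-0.27) and EIF5A (-0.33). The count was 4 and 3 without replicates 1 and 2 of WT DMSO and 7 without replicate 2 of G579S DMSO. EIF4G1 had 1157 and 1202 CPM in WT and 910 and 673 in G579S. In MDA-MB-231 7 passed, 1 higher and 6 lower (7.3% of all genes, 2.74% and 4.55%), with EIF6 (-0.72 ± 0.14), EIF4E3 (1.93 ± 0.45) and EIF3C (-0.51) first, and leaving out any 1 of the 4 libraries left 1 or 2. EIF5 was lower in G579S than in WT by 0.40 in Cal51 too, and the libraries labelled DLD1 and MDA-MB-231 had 0.31 and -0.08, neither past the threshold. In DLD1 35 passed, 12 higher and 23 lower (49.2% of all genes, 22.7% and 26.4%), among them EIF4E3 (5.33), EIF4A2 (1.74) and EIF4EBP1 (-1.58), but there the comparison is between libraries of unlike cells by their markers.

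Which transcripts carried the reads changed for 2 of the 21 members with several tested transcripts (6.09% of 6403 genes, edgeR diffSpliceDGE with the Simes method). In EIF4G2 (adjusted p = 0.00018) reads of NM_001172705.1 rose by 2.90 on the log2 scale relative to the gene. This transcript had 0% to 0.219% of the reads of EIF4G2 in WT DMSO libraries (median 0.0691%) and 0.597% to 2.27% in WT OTS964 libraries (median 0.914%), without overlap, or a median of 15.6 against 183 reads. In G579S cells the medians were 0.0611% and 0.314%. The 2 main transcripts, which differ by an exon of 114 bases, exon 14 of 22 at chr11:10801661-10801774 (GRCh38, - strand, coding), kept most of the reads: the one with that exon had a median of 80% with DMSO and 81.9% with OTS964.

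In EIF5 (adjusted p = 0.0099) the share of NM_183004.4 was 0% to 1.05% in WT DMSO libraries (median 0.279%) and 0.548% to 30.2% in WT OTS964 libraries (median 5.9%). It was 5.79% and 6.01% in A375, 22.9% and 14.6% in Cal51, 30.2% and 0.548% in the libraries labelled DLD1, and 1.84% and 0.982% in MDA-MB-231. The lower MDA-MB-231 and DLD1-labelled libraries lay under the highest WT DMSO library (1.05%). The reads behind it went from a median of 14.8 to one of 102 while those of the main transcript went from 5173 to 1507. The call was lost without replicate 1 of the libraries labelled DLD1 WT OTS964 (adjusted p = 0.087) and without all 4 libraries labelled DLD1 WT (adjusted p = 0.095). EIF4H, whose 2 transcripts differ by a coding exon of 60 bases, did not pass (adjusted p = 0.09), and passed without replicate 1 of MDA-MB-231 WT OTS964 (adjusted p = 0.02).

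**Figure D5:**
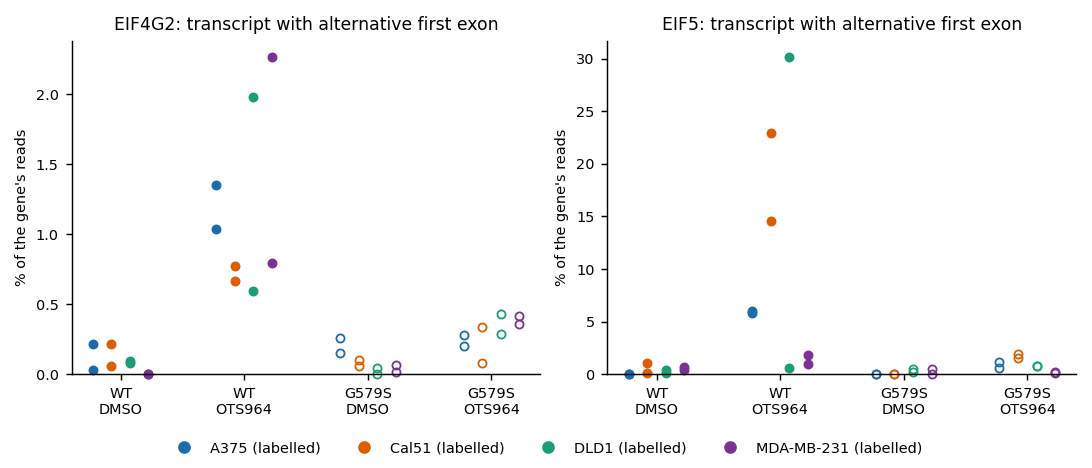
Share of the reads of EIF4G2 (left, NM_001172705.1) and EIF5 (right, NM_183004.4) on the transcript with the alternative first exon, in percent, in each library by genotype and treatment, with filled points for WT and open points for G579S. WT OTS964 libraries reach 2.27% for EIF4G2 and 30.2% for EIF5, and the 2 libraries labelled DLD1 lie far apart.

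The rising transcript of both genes has a first exon of its own that lies within an intron of the main transcript. In EIF4G2 it is at chr11:10807549-10807973, downstream of the main first exon at chr11:10808705-10809110 (GENCODE 29, GRCh38, - strand), and in EIF5 at chr14:103334861-103335185, downstream of chr14:103334002-103334260 (+ strand). Coding starts after both, so the encoded proteins have the same coding span. Reads from an alternative start and reads from unspliced RNA across the same bases cannot be told apart in these tables. Bases of the EIF5 intron that precede the alternative start, chr14:103334683-103334802 (RefSeq, GRCh38.p14, + strand, ending 85 bases before the RefSeq start), are shown with GC boxes on either strand in capitals.
EIF5 alternative start: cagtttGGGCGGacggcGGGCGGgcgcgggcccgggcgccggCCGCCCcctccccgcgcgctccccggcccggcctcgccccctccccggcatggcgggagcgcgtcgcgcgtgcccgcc

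Genes that act with these factors were read from 5 lists, chosen with earlier results of these data known. For these counts, 27.1% of all genes were higher and 31.8% lower in WT cells (13.4% and 47.7% with library totals alone). Of 26 initiation partners, 10 rose and 9 fell in WT cells, with a median log2 fold change of 0.00 (with library totals alone 4 rose and 16 fell). GIGYF2, which represses translation with EIF4E2, fell by 2.24 from 78.3 ± 22.5 to 17.4 ± 8.48 CPM (SD, n = 8, adjusted p = 2.3e-09), and LARP4B by 2.46 from 41.1 ± 12.3 to 7.51 ± 2.91 CPM (SD, n = 8). The poly(A)-binding genes PABPC4 (0.88) and PABPC1 (0.77) rose, and with library totals alone had 0.33 and 0.22. Of 23 kinases, phosphatases and mTOR pathway genes, 12 rose and 4 fell, with a median of 0.37 (5 and 9 with library totals). PPP1R15A (GADD34), which directs phosphatase to EIF2 alpha, rose by 2.13 ± 0.21, from 110 ± 63.6 to 461 ± 263 CPM (SD, n = 8, adjusted p = 6.3e-07), and its constitutive counterpart PPP1R15B by 1.69. The ribosomal S6 kinase gene RPS6KB1 fell by 0.82 and RPS6KB2 rose by 0.96.

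Of 13 elongation factor genes, 7 rose and 3 fell, with a median of 0.86 (7 and 6 with library totals). EEF1A1, which brings aminoacyl-tRNA to the ribosome, rose by 1.26, EEF1G by 1.18 and EEF2, the translocase, by 0.86. DHPS, the first of the 2 enzymes that make the hypusine residue of EIF5A, rose by 0.94. Of 5 termination and recycling genes tested, 3 rose and 0 fell, among them PELO, which rescues stalled ribosomes (1.73), and with library totals alone 1 rose and 2 fell. Of 9 mitochondrial factors, 5 rose, such as TUFM (1.12), and 1 fell, the initiation factor MTIF2 (-0.59), against 2 and 3 with library totals alone. In G579S cells 1 or 2 genes of each cytoplasmic list and 0 of the mitochondrial list passed, against 2.43% of all genes tested. PPP1R15A (0.38, adjusted p = 0.017) and EEF2 (0.29, adjusted p = 0.014) were among them.

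Level and length went with the WT response. Across the 53 members the Spearman rho of the WT log2 fold change was 0.56 with mean TPM, -0.44 with transcript length and -0.14 with genomic span. Over all genes tested the values were 0.29, -0.32 and -0.24. These are descriptions across genes, which share libraries and are not independent replicates.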

How the data were processed

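RNA-seq tables for 32 libraries of 4 cell lines were used, each with estimated counts and TPM per transcript as deposited by the authors. Of genome builds, the submitters' processing notes list GRCm38 and mm10, both of mouse, whereas the deposited identifiers are human RefSeq transcripts. Sources used here give no quantifier. Of 87398 identifiers, 42587 matched a gene (48.7%), among them 99.1% of curated transcripts, and the rest were not used. Reads and TPM were summed per gene and counts rounded. Samples were grouped by title, since other label fields did not match it.

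edgeR 4.0.16 in R 4.3.3 (quasi-likelihood F test, robust, TMM, filterByExpr by group, 14318 genes, Benjamini-Hochberg adjustment over all genes, threshold 0.05) was run with line as a block for each genotype, over 16 libraries, and for the difference of responses, and with 16 group means (16 residual df) for contrasts within a line. Values called CPM are TMM-scaled. DESeq2 1.42.0, RLE, library totals, other filters and transcripts, a replicate block and left-out libraries were alternatives. The statistics were tested on simulated data. Values by group are given for members past the threshold with a fold of at least 2 in WT cells, the 5 with the highest mean TPM, the EIF2 subunits, EIF2 kinases, EIF4E, EIF4A1, EIF4A2, EIF4G and EIF4EBP1 and EIF4EBP2, at most 8 per other contrast by smallest p and members with changed transcript usage; from each partner list at most 6 genes by smallest p are named. EIF3A, EIF2D, EIF4ENIF1 libraries and the ratios, also without the libraries labelled DLD1 WT, were picked for display after their values were seen. Members, lists and rules were chosen with earlier results of these data known. Promoters come from the RefSeq table and exons from GENCODE 29. Same-numbered replicates did not deviate together (r -0.03 to 0.07).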

Additional observations from a re-analysis of the deposited data

Results flagged for a closer look

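The WT and G579S responses to OTS964 differed in 35 of the 53 members by the test of the difference itself, against 50.1% of all genes tested. Among them EIF2S3 passed in opposite directions in the 2 genotypes under TMM, with a difference of 0.74 on the log2 scale. Scaled by library totals, its WT value was -0.08 (adjusted p = 0.35) and the difference 0.31 (adjusted p = 0.0083), and its call in G579S cells (adjusted p = 0.044) was lost without the 4 DLD1 G579S libraries (adjusted p = 0.13). The response of WT cells differed among labelled lines in 7 of 53 members, against 16.9% of all genes: EIF4A2 (adjusted p = 0.0041, edgeR), EIF4EBP2 (0.01), EIF3M (0.012), EIF2B5 (0.015), EIF5A (0.02), EIF4H (0.042) and EIF3A (0.046). One of the 4 labelled lines is DLD1, whose WT libraries went against their label, and 11 members passed without them.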

How the results depend on the processing

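Counts of members called in WT cells across lines moved with scaling. With library totals alone 12 were higher and 22 lower, 24 passed in A375 WT, 23 in the libraries labelled DLD1 WT, 11 in DLD1 G579S, 2 in A375 G579S and 12 in the test among lines. The WT value changed sign with library totals, passing under at least 1 of the 2 scalings, for EIF1 (-0.07), EIF1AX (-0.48), EIF1AD (-0.22), EIF2S1 (-0.43), EIF2S2 (-0.16), EIF2S3 (-0.08), EIF2B1 (-0.02), EIF2B2 (-0.13), EIF2AK4 (-0.39), EIF3B (-0.11), EIF3D (-0.01), EIF3E (-0.14), EIF3G (-0.05), EIF3M (-0.49), EIF4A3 (-0.45), EIF4B (-0.50), EIF4H (-0.10), EIF4G2 (-0.21), EIF4G3 (-0.23) and EIF5B (-0.51), and with counts rebuilt from TPM for EIF4E2 (0.06). It also changed sign with library totals, passing under neither, for EIF2A (-0.30), EIF4E3 (-0.01) and EIF4EBP3 (-0.10). The difference of responses did so for EIF2B2 (-0.03), EIF3B (-0.14), EIF3D (-0.02), EIF3G (-0.10), EIF4H (-0.15) and EIF4G2 (-0.11). The median of all genes moves with this scaling by construction.

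DESeq2 called 17 members in G579S cells across lines, 2 in A375 G579S, 4 in Cal51 G579S, 1 in MDA-MB-231 G579S, 4 between genotypes in A375 and 17 among lines. The share of all genes called is not given for DESeq2, curated transcripts, the replicate block, unadjusted p or left-out libraries, here or above. Counts under these settings therefore cannot be read as particular to the members. Curated transcripts alone gave 2 in A375 G579S, and RLE 4 between genotypes in MDA-MB-231. Without the DLD1 libraries 0 passed in G579S cells, 11 among lines and 1 for transcript usage, which was also 1 with transcripts of at least 10% of reads. The cause was not tested. With the replicate block 38 passed in WT cells, 0 in G579S cells, 31 for the difference of responses, 1 among lines and 3 for transcript usage; the numbers do not pair the samples.

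Leaving out 1 library gave 38 to 44 in WT cells (29 to 32 higher, 9 to 12 lower), 1 to 21 in G579S cells, 33 to 36 for the difference, 3 to 30 among lines, 46 to 49 between lines without drug and 1 to 3 for transcript usage. Within lines it gave 32 to 36 (A375 WT), 31 to 33 (Cal51 WT), 31 to 36 (labelled DLD1 WT), 27 to 39 (MDA-MB-231 WT), 0 (A375 G579S and MDA-MB-231 G579S), 0 to 13 (Cal51 G579S) and 12 to 15 (DLD1 G579S), and between genotypes 0 in A375, 3 to 17 in Cal51, 29 to 35 in DLD1 and 1 to 2 in MDA-MB-231. A lone sample is then assumed to vary like the other groups. Over single members, 1116 values under other alternatives kept their side of the threshold, 93 lost the call, 7 gained it and 27 changed sign with a call under at least 1 of the 2 settings. Changes of sign between values that passed in neither are among the 1116. Transcript usage was not run under DESeq2 or with rebuilt counts.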
